A study of Mus musculus with 13 samples.

Results

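The microRNAs (miRNAs) of the imprinted Dlk1-Dio3 region were compared between flank tumors of mice on a curcumin diet and on a control diet. The members were the mouse miRNAs on the array whose number belongs to 1 of 46 numbered families of this region, with any letter and either arm of the hairpin. This gave 96 of the 1079 mouse miRNAs, from 49 hairpins, and a gene table placed all 49 between Dlk1 and Dio3 on chromosome 12. The tumors grew from B78H1 cells, an amelanotic mouse melanoma line derived from B16 that lacks Tap-2 and MHC-I, injected subcutaneously into male C57BL/6 mice. Control mice (n = 6 tumors) ate standard chow and curcumin-treated mice (n = 7 tumors) ate chow with 4% curcumin, from 14 days before injection until the tumors were taken on day 28. All mice thus carried the same line. No label ties an array to a mouse or a flank, so the p-values measure the spread between these samples. Whole tumors were used, which hold host cells besides the melanoma cells.

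Imprinted genes are expressed from 1 parental allele. In this region the paternal allele gives the protein-coding genes Dlk1, Rtl1 and Dio3, and the maternal allele gives the long noncoding RNAs Meg3, Rian and Mirg together with the miRNAs. The miRNAs are made as hairpins with a 5p and a 3p arm, and each mature arm finds its targets mainly through its seed, bases 2 to 8. The miRNAs of the region are known to be abundant in embryo, placenta and brain and low in most adult tissues. Those between Mir431 and Mir136 lie antisense to Rtl1 and can cleave its mRNA, and the long run from Mir379 to Mir410 lies along Mirg.

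The mature sequences of the 13 members that differed between the diets, followed by miR-376b-3p and miR-494-3p, which are described for their levels, were taken from RefSeq (GRCm38.p6) and are written 5′ to 3′ with the seed in capitals.
miR-337-3p: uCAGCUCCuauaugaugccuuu
miR-127-3p: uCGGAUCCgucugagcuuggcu
miR-434-3p: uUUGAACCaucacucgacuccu
miR-136-5p: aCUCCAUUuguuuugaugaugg
miR-370-3p: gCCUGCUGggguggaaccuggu
miR-379-5p: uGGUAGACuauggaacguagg
miR-411-5p: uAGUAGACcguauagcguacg
miR-299b-5p: gGUUUACCgucccacauacau
miR-329-3p: aACACACCcagcuaaccuuuuu
miR-376a-3p: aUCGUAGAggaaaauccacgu
miR-539-5p: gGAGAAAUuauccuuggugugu
miR-154-5p: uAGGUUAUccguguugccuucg
miR-410-3p: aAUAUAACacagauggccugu
miR-376b-3p: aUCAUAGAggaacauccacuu
miR-494-3p: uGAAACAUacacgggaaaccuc

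The 11 members that rose came from 11 hairpins and carried 11 different seeds, so none of them shared a seed with another. miR-376a-3p and miR-376b-3p, neighbors in the region with similar sequences, also had different seeds. The sequence of miR-299b-5p is contained whole in that of miR-299a-5p, so its signal can include that miRNA. The seed of miR-379-5p was shared with miR-1193-5p, a member that was detected in no tumor. miR-487b-3p is given below by name only.

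The 13 arrays held 2754 probes for mouse miRNAs, 1 to 4 per miRNA. The signal per array lay between 114095 and 281508 in curcumin tumors and between 150272 and 244666 in controls, with 272 to 370 and 313 to 412 mouse miRNAs detected. Levels are given as log2 of the quantile-normalized signal, with signals under 1 set to 1, so that the floor is 0. The detection limit of an array, its lowest detected miRNA, lay between 0 and 2.24 in log2 with the same floor. It was taken from quantile-normalized sums of the detected probes, while the levels come from sums of all probes. The array position was tied to the diet, with controls in line 1 and curcumin tumors in line 2 of each slide, so line and diet cannot be told apart. miR-211-5p, a miRNA of melanocytes and melanoma, was detected in 4 of 7 curcumin and in 6 of 6 control tumors, with mean levels of 4.48 and 9.24 (limma adjusted p = 0.0154).

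Most of the cluster was not detected or lay near the detection limit. Of the 96 members, 65 were detected in no tumor, and 50 of these were at the floor on every array. The remaining 15 reached a level of at most 1.96. Over all tumors 74.4% of the members' values were at the floor, beside 57.6% of the values of all mouse miRNAs. Detection in at least 1 tumor was found for 31 members, and in all 13 tumors for 3 (miR-494-3p, miR-487b-3p and miR-370-3p). Of the detected members 20 were 3p and 11 were 5p arms, among 48 members of each arm. Both arms were on the array for 47 hairpins, of which 24 showed 1 detected arm, 3 showed both (Mir337, Mir434 and Mir154) and 20 showed neither. With whole tumors, fewer cells that express a miRNA and less of it per cell cannot be told apart.

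A median of 13 members was detected per curcumin tumor and of 6.5 per control tumor. The number was 12, 15, 13, 12, 5, 18 and 26 in curcumin tumors 1 to 7. In control tumors 1 to 6 it was 3, 9, 4, 6, 16 and 7. The groups overlapped, since curcumin tumor 5, the array with the fewest detected miRNAs (272), lay among the controls and control tumor 5, the array with the most (412), lay among the curcumin tumors. As a share of all miRNAs detected in a tumor, members made up 1.84% to 7.05% in curcumin (median 3.69%) and 0.958% to 3.88% in control tumors (median 1.89%). Detection was more frequent in curcumin tumors for 22 members and in controls for 6, beside 102 and 140 of all 1079 miRNAs. There were 14 members detected in curcumin tumors and in no control, of which 8 were detected in curcumin tumor 7 and in no other tumor, and 2 members detected in controls and in no curcumin tumor (miR-539-5p and miR-1197-5p). Over all 1079 miRNAs these counts were 52 and 43.

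**Figure D1:**
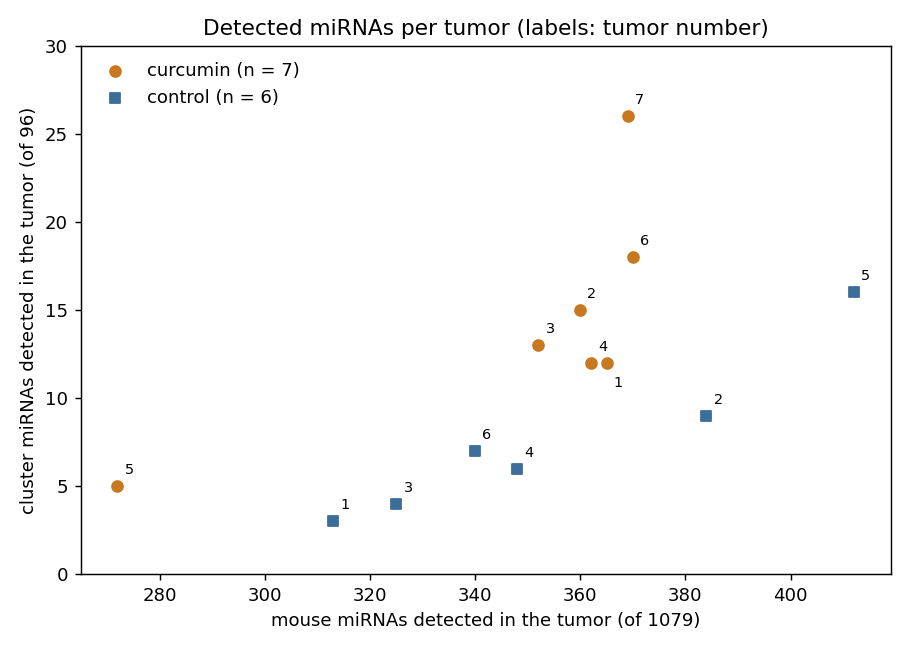
Number of cluster miRNAs detected in each tumor (vertical axis, of 96) against the number of all mouse miRNAs detected in it (horizontal axis, of 1079), with 1 point per tumor labelled by its number. Curcumin tumor 7 stands highest with 26 members, and control tumor 5 has the most detected miRNAs, 412, with 16 members.

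Each miRNA was tested with limma, which fits a linear model and borrows information on the spread from the other miRNAs, with Benjamini-Hochberg adjustment over the 1079 miRNAs. In this test 13 members had an adjusted p below 0.05. In curcumin tumors 11 were higher and 2 were lower. Among all 1079 miRNAs 191 passed (17.7%), 93 of them higher (8.62%) and 98 lower (9.08%). Since a miRNA at the floor cannot differ, the members are better read against the 485 miRNAs detected on at least 1 array, of which the same 191 passed (39.4%), 93 of them higher (19.2%) and 98 lower (20.2%). All 13 called members were among the 31 detected ones. The median log2 fold change of these 31 was 0.80, with 24 higher and 7 lower in curcumin tumors, beside a median of −0.11 for the 485. For the 28 members detected on 1 to 12 arrays the median was 0.995, beside −0.19 for the 214 other miRNAs detected on 1 to 12 arrays. Of the 31 members, 14 were included through curcumin tumors only and 2 through controls only. This filter by itself favors higher values in curcumin tumors. Without curcumin tumor 7 the median of the same 31 was 0.52, with 21 higher and 7 lower. The 31 were not chosen again for this, and 8 of them were detected in curcumin tumor 7 only. In that setting 14 members passed (12 higher, 2 lower), all 13 among them.

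The number of risen members depended on how the arrays were brought to a common scale. With the 75th percentile of all miRNAs as the scale, 10 members passed (8 higher, 2 lower). With the 75th percentile of the miRNAs detected on all arrays, 2 passed, both lower, and 13 had an unadjusted p below 0.05 in limma. Without any scaling 0 members passed in limma, and 10 had an unadjusted p below 0.05. The 11 risen members stayed higher in curcumin tumors under both of the latter, with adjusted p between 0.0607 and 0.509. With normexp background correction applied to median spot signals, which was chosen after seeing the data, 6 members passed (2 higher, 4 lower). Of these, 2 were among the 13, including the fallen miR-539-5p. With the deposited log2 values the calls of miR-136-5p, miR-154-5p, miR-299b-5p, miR-329-3p and miR-434-3p were lost (adjusted p between 0.0672 and 0.128), and with the sum of detected probes those of miR-154-5p, miR-329-3p and miR-434-3p (0.0527 to 0.0886). Of all called miRNAs 48.7% were higher after quantile normalization, 60.8% when scaled to the 75th percentile over all miRNAs, and 37.2% unscaled.

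The size of the difference in dim members depended on the floor and on any constant added before log2. With the floor at the smallest positive value the log2 fold change was 4.96 for miR-411-5p, 3.70 for miR-410-3p and 3.39 for miR-376a-3p, and the calls of miR-376a-3p (adjusted p = 0.0847), miR-410-3p (0.0530) and miR-329-3p (0.0676) were lost. With the floor at each array's lowest detected miRNA the values were 1.24, 0.98 and 1.97, and the calls of miR-337-3p (0.0793) and miR-410-3p (0.125) were lost. The deposited values, to which the authors added 4.39, gave 0.89, 0.67 and 1.02. For miR-127-3p the corresponding values were 1.5, 1.5 and 1.07. With normexp the log2 fold changes of the 11 risen members were between 0.04 and 0.29.

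**Figure D2:**
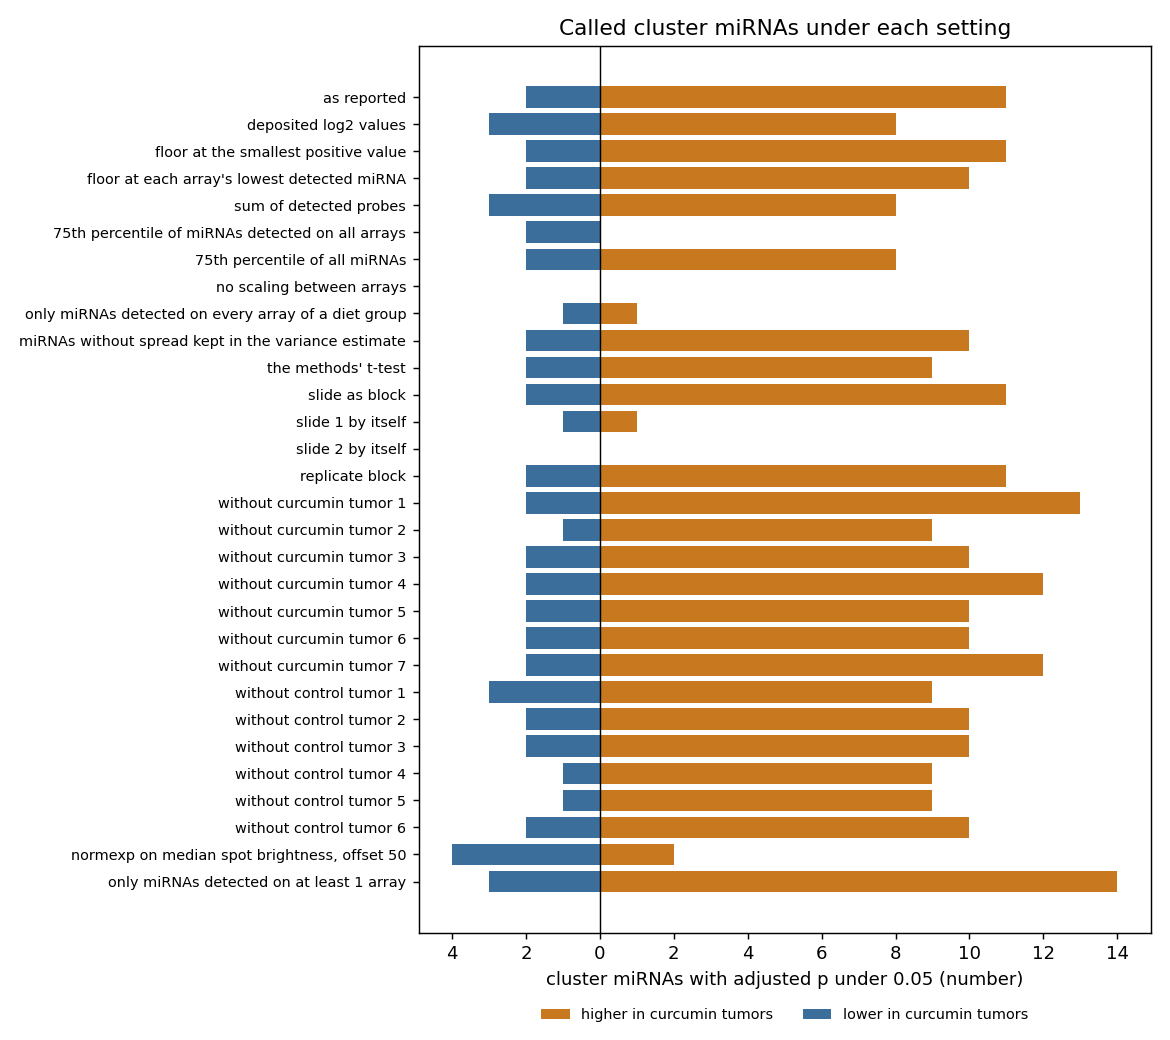
Number of cluster miRNAs with an adjusted p below 0.05 under each setting (one row each), to the right those higher and to the left those lower in curcumin tumors. The reported setting has 11 higher and 2 lower members, and no member passed without scaling between arrays or on slide 2 by itself.

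The largest group of risen members lay in the run from Mir379 to Mir410, which also held most of the members (70 of 96). Of the 70, 22 were detected, 7 rose and 1 fell, beside 19.2% higher and 20.2% lower among all 485 detected miRNAs. The median log2 fold change of the detected ones was 0.89. Many of them were detected in curcumin tumors only, and this filter by itself favors a higher median. miR-379-5p, the first miRNA of the run, had levels of 2.71, 3.84, 3.18, 3.00, 2.43, 3.56 and 5.30 in curcumin tumors 1 to 7. In control tumors 1 to 6 its levels were 1.31, 2.59, 0.90, 0, 2.05 and 2.40. All curcumin tumors except tumor 5 lay above every control. The log2 difference was 1.89 ± 0.50 (SE, limma adjusted p = 0.0204), and it was detected in 6 curcumin and 3 control tumors.

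miR-411-5p, whose hairpin follows that of miR-379, was at 0.59, 2.43, 1.54, 1.44, 1.05, 2.09 and 3.83 in curcumin tumors 1 to 7. Its control levels were 0 in tumors 1 to 5 and 0.68 in tumor 6. It was detected in 3 curcumin tumors and in no control, and all curcumin tumors but tumor 1 lay above every control. Here the log2 fold change was 1.74 ± 0.42 (SE, limma adjusted p = 0.0134). Where no array of the dimmer diet detected a miRNA, the fold is given as "at least". It sets the mean of the brighter diet against the mean of the dim arrays. Each dim array counts with the higher of its detection limit and the miRNA's own level, although these come from different sums of probes. This is no strict bound, since a member could lie above the limit undetected, as miR-134-5p did in control tumor 1 (3.18, limit 1.33). The brighter mean also includes tumors that did not detect the miRNA. By this measure miR-411-5p was at least 2.10-fold higher in curcumin tumors.

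The miR-376 miRNAs, known as targets of A-to-I editing in brain, lie close together in this run. miR-376a-3p had levels of 3.57, 3.08, 2.33, 1.83, 0.26, 3.24 and 4.39 in curcumin tumors 1 to 7. Its levels in control tumors 1 to 6 were 0.11, 0.44, 0.56, 0, 0.48 and 1.13. Curcumin tumor 5 lay among the controls and the other curcumin tumors lay above them. It was detected in 5 curcumin tumors and no control, and was at least 3.23-fold higher (log2 fold change 2.22 ± 0.53, SE, limma adjusted p = 0.0131).

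miR-376b-3p, named after its values were seen, did not pass the test. Its levels were 9.06, 1.98, 3.41, 1.13, 7.19, 1.89 and 3.26 in curcumin tumors 1 to 7. Those of control tumors 1 to 6 were 0, 0, 1.23, 0, 0 and 1.53. Curcumin tumors 1 and 5 stood far above the rest, and before normalization their signals were 475.4 and 75.6 beside −1.9 to 11.5 in all other tumors. Both of its probes were brightest on the array of curcumin tumor 1. It was detected in 5 curcumin tumors and no control, at least 8.55-fold higher (log2 fold change 3.53 ± 1.16, SE, limma adjusted p = 0.0517). The fold was at least 4.76 without curcumin tumor 1 and at least 5.90 without curcumin tumor 5. Each of these still includes the other bright tumor. In limma miR-376b-3p passed without curcumin tumor 4 (adjusted p = 0.0304) or 6 (just under 0.05). In curcumin tumors 1 and 5 miR-376a-3p was at 3.57 and 0.26. miR-376c-3p was above the floor in curcumin tumor 7 (2.45) and in no other tumor.

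miR-154-5p, which gave its name to a family of related miRNAs of the region, had levels of 1.93, 2.98, 2.91, 2.92, 2.92, 3.14 and 4.61 in curcumin tumors 1 to 7. In control tumors 1 to 6 it was at 1.32, 1.53, 1.83, 1.27, 1.68 and 2.42. All curcumin tumors but tumor 1 lay above every control, and it was detected in 5 curcumin tumors and no control. It was at least 2.60-fold higher in curcumin tumors (log2 fold change 1.38 ± 0.34, SE, limma adjusted p = 0.0148). The other arm, miR-154-3p, was at the floor in all 6 controls and above it in 6 of 7 curcumin tumors, with a highest level of 2.92. Detection was limited to curcumin tumor 7, and the miRNA was at least 1.24-fold higher in curcumin tumors (limma adjusted p = 0.0529). Without that tumor the fold so computed was 0.9996, so the least fold rests on curcumin tumor 7. In limma miR-154-3p passed without curcumin tumor 1 (0.0259), 4 (0.0443) or 7 (0.0204), with the deposited values (0.0144) and with the floor at the smallest positive value (0.00231).

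miR-299b-5p was at 1.85, 2.96, 2.70, 2.42, 3.02, 2.72 and 4.23 in curcumin tumors 1 to 7. The control tumors 1 to 6 were at 1.77, 1.41, 1.75, 0.88, 1.58 and 2.16. On these levels only curcumin tumor 1 lay within the range of the controls. With the deposited values curcumin tumors 1 (3.09) and 4 (3.02) lay below control tumor 6 (3.14). Before normalization curcumin tumor 5 had a signal of 2.78, below control tumors 2 (4.44), 5 (6.31) and 6 (4.07). The diets differed by 1.25 ± 0.32 on the log2 scale (SE, limma adjusted p = 0.0178), with detection in 5 curcumin and 1 control tumor.

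A smaller difference was measured for miR-329-3p, at 1.54, 2.59, 2.25, 2.40, 2.70, 2.71 and 3.98 in curcumin tumors 1 to 7. Its control levels were 1.75, 1.05, 2.00, 1.38, 1.21 and 2.10. Curcumin tumor 1 lay among the controls. On average curcumin tumors were higher by 1.01 ± 0.33 on the log2 scale (SE, limma adjusted p = 0.0470). This call was lost without any 1 of curcumin tumors 2, 3, 4, 5 and 6 or control tumors 1, 2, 4 and 5, with adjusted p between 0.0606 and 0.111.

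miR-410-3p, the member nearest to Dio3 among those detected, was at 0, 2.39, 1.24, 1.24, 1.34, 1.80 and 3.66 in curcumin tumors 1 to 7. It was at 0.76 in control tumor 2 and at the floor in the other 5 controls. It was detected in curcumin tumor 7 and in no other tumor, so its other levels come from arrays that did not call it detected. Its log2 fold change was 1.54 ± 0.45 (SE, limma adjusted p = 0.0322), or at least 1.69-fold. The call was lost without any 1 of curcumin tumors 2 and 6 or control tumors 1, 3, 4, 5 and 6, with adjusted p between 0.0529 and 0.0667.

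The members antisense to Rtl1, from Mir431 to Mir136, numbered 10, of which 4 were detected and 3 rose, beside 19.2% of all detected miRNAs. The median log2 fold change of the 4 was 1.30, with miR-434-5p included through curcumin tumor 7 only. miR-127-3p, the best known of them, was the only risen member detected in all 7 curcumin tumors, and it was detected in 3 controls. Its levels were 3.14, 4.13, 3.81, 3.77, 3.54, 4.12 and 5.84 in curcumin tumors 1 to 7. In control tumors 1 to 6 they were 2.42, 2.76, 2.72, 1.46, 2.59 and 3.37. Curcumin tumor 1 lay below control tumor 6, and the other 6 curcumin tumors lay above all controls. The log2 fold change was 1.5 ± 0.40 (SE, limma adjusted p = 0.0204, exact two-sided permutation p = 0.00233 over 1716 splits).

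On the normalized levels miR-136-5p was the only member whose diets did not overlap. Such a gap was found in 55 of the 485 detected miRNAs (11.3%). Its levels were 2.25, 2.87, 2.71, 2.81, 2.71, 2.99 and 4.37 in curcumin tumors 1 to 7. The control tumors 1 to 6 had 1.74, 1.11, 2.22, 1.05, 1.83 and 2.17. The gap was narrow, since curcumin tumor 1 and control tumor 3 differed by less than the spread within either diet (SD 0.666 in curcumin and 0.505 in control tumors). With the deposited values the diets overlapped, with curcumin tumor 1 (3.02) below control tumors 3 (3.09) and 6 (3.15). The log2 fold change of the normalized levels was 1.27 ± 0.32 (SE, limma adjusted p = 0.0149, exact permutation p = 0.00117).

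miR-434-3p was at 2.20, 2.92, 2.62, 2.33, 2.47, 2.98 and 4.41 in curcumin tumors 1 to 7. Its control levels were 1.24, 1.30, 1.80, 0.68, 1.74 and 2.32. Curcumin tumor 1 lay below control tumor 6. It was detected in 6 curcumin and 1 control tumor, and the log2 fold change was 1.33 ± 0.35 (SE, limma adjusted p = 0.0202). The other arm, miR-434-5p, was detected in curcumin tumor 7 and in no other tumor (limma adjusted p = 0.645).

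In the stretch beside Meg3, up to Mir665, 3 of 12 members were detected and 1 rose, beside 19.2% of all detected miRNAs. miR-337-3p was at 0.56, 1.72, 1.63, 1.56, 1.97, 2.20 and 3.20 in curcumin tumors 1 to 7. Controls 1 to 6 were at 0.73, 0, 0, 0, 0.28 and 1.27. Curcumin tumor 1 lay among the controls, and 2 curcumin tumors and no control detected it. It was at least 1.92-fold higher (log2 fold change 1.45 ± 0.36, SE, limma adjusted p = 0.0143). Its 5p arm was above the floor in curcumin tumor 7 and in no other tumor.

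**Figure D3:**
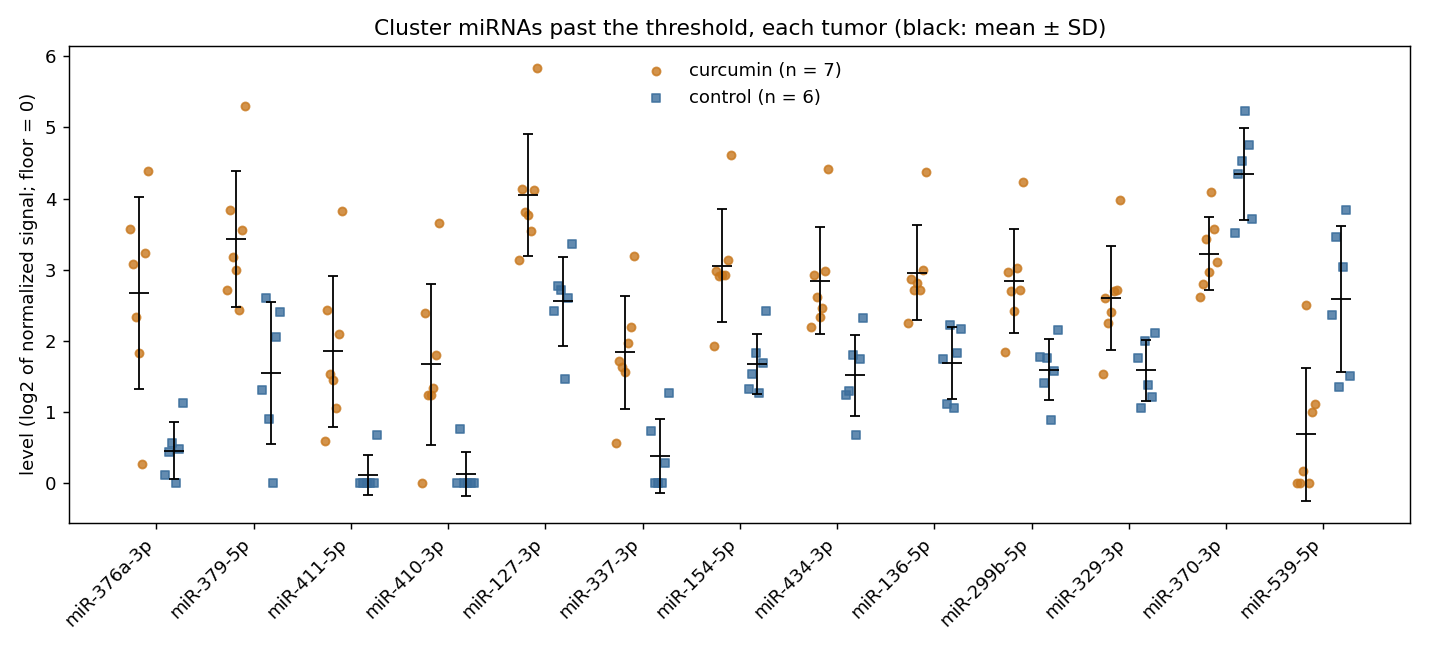
Levels of the 13 called members in every tumor on the log2 scale, where 0 is the floor (circles, curcumin, n = 7; squares, control, n = 6; black lines, mean ± SD). In the 11 risen members the highest point is curcumin tumor 7, and miR-136-5p is the one member without overlap.

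The tumors stood in a similar order in the risen members. Curcumin tumor 7 was the highest of all 13 tumors in 11 of the 11. The lowest curcumin tumor was tumor 1 in 9 of them and tumor 5 in the other 2. Among the controls, tumor 6 was the highest in 8, tumor 2 in 2 and tumor 3 in 1. Curcumin tumor 5, the array with the fewest detected miRNAs (272), detected miR-127-3p and none of the other risen members. Its levels of the others thus come from signals not called detected. Before normalization several controls had higher signals than this tumor in each of the risen members. With the deposited values further curcumin tumors lay below control tumor 6. These were tumors 3 and 4 in miR-154-5p, tumor 4 in miR-329-3p and tumors 3, 4 and 5 in miR-434-3p. Averaged over the 31 detected members, the level was 1.82 to 3.46 (median 2.08) with curcumin and 1.36 to 1.78 (median 1.60) without, and curcumin tumor 7 held the highest value. Of these 31, 14 were detected in curcumin tumors and no control, 8 of them only in curcumin tumor 7, and 2 only in controls. The averages are thus partly set by the choice of members. The 11 risen members were higher in curcumin tumors on both slides, by 0.73 to 2.72 on slide 1 (3 curcumin and 2 control tumors) and by 1.27 to 2.23 on slide 2 (4 and 4). Since they were chosen on these same arrays, their direction on each slide is not an independent result. By itself slide 1 gave 2 called members, and slide 2 gave 0 in limma, with 7 and 15 members at an unadjusted p below 0.05.

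There were 2 members that fell. miR-370-3p, from 1 of the 2 hairpins within Rian, was detected in every tumor. Its levels were 2.62, 2.80, 3.42, 2.96, 4.09, 3.57 and 3.11 in curcumin tumors 1 to 7. In control tumors 1 to 6 they were 3.51, 4.35, 4.52, 5.23, 4.75 and 3.72. Curcumin tumors 5 and 6 overlapped with control tumors 1 and 6. The level fell by 1.12 ± 0.31 on the log2 scale (SE, limma adjusted p = 0.0227, exact permutation p = 0.00699). The call was lost without curcumin tumor 2 (adjusted p = 0.0515), control tumor 4 (0.0531) or control tumor 5 (0.0512), and without scaling between arrays (0.0605). The other detected member within Rian, miR-341-3p, differed by −0.99 ± 0.46 (SE, limma adjusted p = 0.211).

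miR-539-5p, in the run from Mir379 to Mir410, was detected in 3 controls and in no curcumin tumor. It was at 0, 0, 0.17, 2.50, 0, 0.99 and 1.11 in curcumin tumors 1 to 7. The control tumors 1 to 6 had 2.36, 3.45, 1.35, 3.04, 3.84 and 1.51. Curcumin tumor 4 overlapped with the controls, and the other 6 lay below them. It was at least 2.48-fold lower (log2 fold change −1.91 ± 0.51, SE, limma adjusted p = 0.0202). Both fallen members, likewise chosen on these arrays, were lower on both slides, and both passed with either 75th percentile scaling.

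The other members detected in all tumors did not pass the test. miR-494-3p had levels of 9.47, 8.71, 10.76, 9.84, 12.13, 9.91 and 10.70 in curcumin tumors 1 to 7. Controls 1 to 6 were at 9.78, 11.61, 12.57, 12.40, 10.44 and 11.38. The diets overlapped over most of their range, and the log2 fold change was −1.15 ± 0.57 (SE, limma adjusted p = 0.252, exact permutation p = 0.0868). miR-487b-3p was at 5.48, 5.53, 5.68, 5.06, 5.25, 5.06 and 4.95 in curcumin tumors. Its control levels were 5.72, 5.29, 5.01, 5.27, 4.09 and 5.14. The log2 fold change was 0.20 ± 0.23 (SE, limma adjusted p = 0.987). Both lie in the run from Mir379 to Mir410, among members that rose.

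miR-134-5p, a brain miRNA known to act in dendrites, was also named after its values were seen. It was detected in 6 curcumin and 5 control tumors. Its levels were 3.06 to 3.70 in curcumin (median 3.18) and 3.18 to 5.32 in control tumors (median 3.85). The log2 fold change was −0.79 ± 0.28 (SE, limma adjusted p = 0.0734), and without control tumor 1 the difference passed (−0.97, adjusted p = 0.0287). It passed with the deposited log2 values as well (−0.66, adjusted p = 0.0378).

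**Figure D4:**
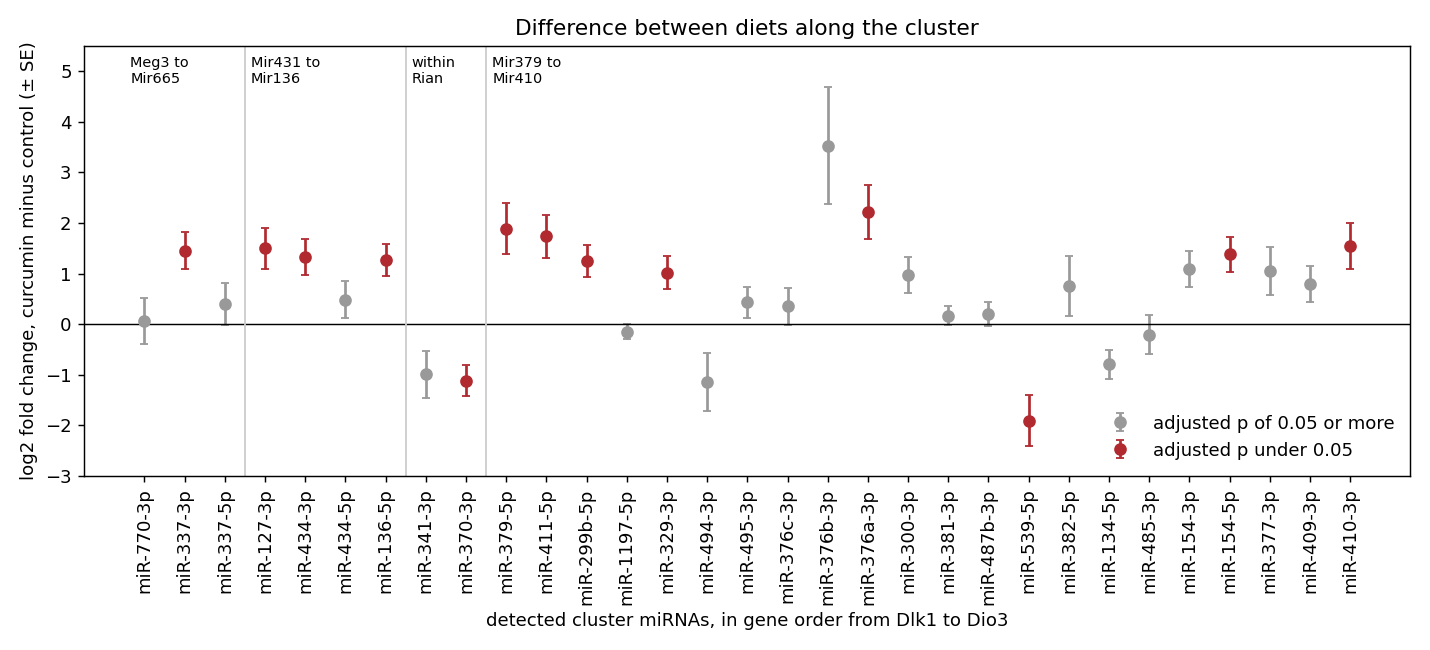
Log2 fold change (curcumin minus control, ± SE) of the 31 detected members in their gene order from Dlk1 to Dio3, with called members in red and the sections of the cluster divided by gray lines. Risen members stand on both sides of Rian, miR-370-3p (−1.12) and miR-539-5p (−1.91) fell, and miR-376b-3p has the widest error (3.53 ± 1.16).

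The other arm was on the array for 14 named members, and none of these arms passed the test with limma. Of the 14, 9 were at the floor in every tumor. The other 5 (miR-136-3p, miR-154-3p, miR-337-5p, miR-411-3p and miR-434-5p) were at the floor in all controls and above it in at least 1 curcumin tumor. Across the risen members 6 were 3p and 5 were 5p arms.

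The array held 17 further miRNAs whose genes lie between Dlk1 and Dio3 but whose numbers are not among the 46 families. Of these, 5 were detected and 0 passed in limma or in the methods' t-test, while 1 had an unadjusted p below 0.05 in limma. The nearest was miR-432 (−1.13, adjusted p = 0.0803). In 5 of the 29 other settings 1 of the 17 passed. Of the 12 miRNAs of the cluster from miR-17 to miR-92a, which is known to promote cell proliferation, 9 were detected and 5 fell, and 3 were at the floor in every tumor. Of the 62 miRNAs of the Sfmbt2 cluster, a large repeated cluster within another imprinted gene, 40 were detected and 14 fell. Among all detected miRNAs 98 of 485 fell (20.2%).

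Base composition moved with the direction of the difference on these arrays. The median GC content was 44.5% for 76 detected miRNAs that rose, 54.5% for 67 that fell and 50.0% for all 359 detected miRNAs with a known sequence. The 11 risen members had a median of 45.5%, and the 2 fallen members had 68.2% (miR-370-3p) and 40.9% (miR-539-5p). Its part in the result was not tested.

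Markers of other cell types also moved with the diet. Of 9 miRNAs typical of fibroblasts and other mesenchymal cells (the miR-199, miR-214, miR-143, miR-145 and miR-140 miRNAs), 6 rose, beside 19.2% of all detected miRNAs. The other 3 were miR-143-3p, miR-145-5p and miR-214-5p, with log2 fold changes of 0.20, −0.05 and −1.55. The mean level of the list was 6.33 to 7.47 in curcumin and 5.17 to 6.30 in control tumors, without overlap. All 6 hematopoietic markers rose (among them miR-142-3p and miR-150-5p), and the list's mean level was 5.53 to 7.48 in curcumin and 3.27 to 4.77 in control tumors. Of 7 epithelial markers 2 rose (miR-205-5p and miR-203-3p) and 4 were at the floor in every tumor, with mean levels of 1.37 to 2.09 and 0.23 to 1.31. Of 4 skeletal muscle markers 1 rose, with mean levels of 1.37 to 7.62 and 1.46 to 7.01. Neither of the 2 endothelial markers passed, at 4.90 to 6.64 and 3.99 to 5.16. Of the 2 melanocytic markers 1 fell, at 0.91 to 6.08 and 4.45 to 6.26.

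Curcumin tumor 7, the highest in every risen member, had the highest mean level of the fibroblast (7.47), hematopoietic (7.48) and endothelial (6.64) lists and the lowest of the muscle list (1.37). Control tumor 6, the highest control in 8 of the 11, had the highest control level of the first 3 of these lists (6.30, 4.77 and 5.16) and of the muscle list (7.01). Curcumin tumor 1, the lowest curcumin tumor in 9 of the 11, had 7.13, 6.22 and 4.90 for the fibroblast, hematopoietic and endothelial lists. Among curcumin tumors it was thus at the median of the fibroblast and hematopoietic lists and the lowest in the endothelial list. The part of these cell types in the differences of the cluster was not tested.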

How the data were processed

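Total RNA from 13 flank tumors (7 curcumin, 6 control) was labeled with Cy3 and hybridized to 1-color mouse miRNA arrays, 1 per tumor. The authors made the deposited intensity values in Feature Extraction 10.10.1.1 by background subtraction and summing of replicate spots per probe. The same software, per the file headers, gave a score of 0 or 1 for whether a miRNA was detected and whether a spot was above background or saturated. The authors also deposited log2 values. All of these (100% within 1e-04) were met by summing the detected probes (all probes where none was detected), quantile normalizing, adding 4.39 and taking log2.

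For the values given here intensities were added over the probes of each miRNA and quantile normalized over the arrays with limma (version 3.58.1, R 4.3.3). Values under 1 were set to 1 and log2 was taken. limma was run without covariates on the 607 miRNAs with a spread, and p-values were adjusted over 1079 (Benjamini-Hochberg, threshold 0.05). miRNAs without a spread counted as tested and not called. Members were also compared with exact two-sided permutation tests over 1716 splits (smallest p 0.000583). The limma step was tested on simulated data.

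Groups and tumor numbers were taken from the labels. No sample was left out. Precision is limited by the number of arrays and, for dim miRNAs, by background. Hairpin order and 89 of 96 mature sequences came from RefSeq tables of GRCm38.p6. Since the design of the array rests on another assembly, coordinates were left out. The members and lists were chosen with earlier results of these data known. Named were members detected on all arrays, members past the threshold, members detected on every array of 1 diet and the other arm of each. The sections of the cluster follow the gene order, and that within Rian was set apart afterwards. Alternatives were the deposited values, other floors, probe sums, scalings and background corrections, filters on detection, the methods' t-test, the slide and the tumor number as blocks, each slide alone and each tumor left out in turn.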

Additional observations from a re-analysis of the deposited data

Results flagged for a closer look

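In 34 groups of values of named members, Dixon's test for a single outlying sample was run on each diet, and 5 values from 3 tumors stood apart. Chance gives about 1 in 20. For 3 of the values curcumin tumor 7 lay above the other curcumin tumors, with a level of 5.84 for miR-127-3p (next highest 4.13), 4.37 for miR-136-5p (2.99) and 4.41 for miR-434-3p (2.98), and all 3 passed the limma test without this tumor as well. The other 2 values were single controls above the floor where the remaining controls were at it, control tumor 2 at 0.76 for miR-410-3p and control tumor 6 at 0.68 for miR-411-5p. Neither was called detected on its array.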

How the results depend on the processing

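The direction of the 22 named members with a spread held under every setting that gave them a value, while the size of the difference in dim members moved with the floor. The number of members past the threshold, 13 as reported, moved to 2 with the 75th percentile of miRNAs detected on all arrays, 0 without scaling between arrays, 2 when the test was limited to miRNAs that every array of a diet detected, 2 on slide 1, 0 on slide 2, and 6 with normexp on the median spot brightness. The number over all miRNAs, 191 as reported, moved to 78 without scaling, 97 on slide 1 and 8 on slide 2. The filter leaves fewer miRNAs to test and each slide fewer tumors. For the scalings and the background correction the cause was not tested. Leaving out each tumor in turn gave 10 to 15 members and 137 to 204 miRNAs. The median log2 fold change of miRNAs detected on all arrays was −0.09 as reported, −0.25 with their 75th percentile and −0.26 without scaling. With the deposited log2 values 11 members passed (8 higher, 3 lower), 8 of them among the 13.

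The tumor numbers are shared by both diets but did not pair the tumors. The correlation of same-numbered tumors' deviations from the diet means was 0.09, 0.12, 0.02, 0.13, −0.29 and 0.23, and no tumor correlated best with its own number. The number as a replicate block, a fit that drops curcumin tumor 7, gave 13 members (11 higher, 2 lower) and 144 miRNAs. Normexp on the mean spot brightness was not run, since the files hold the median instead. The normexp setting and the filter to miRNAs detected on at least 1 array (17 members) were chosen after seeing the data.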
